A study of Drosophila melanogaster with 6 samples.

Results

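The genes described here are those of the circadian clock of the fruit fly Drosophila melanogaster, measured in adult male heads. Of 10 genes named for this account, 9 (per, tim, Clk, cyc, vri, Pdp1, cry, cwo and Pdf) had probe sets that the platform annotation assigns to a single gene symbol, out of 11982 genes with such probe sets. They held 11 probe sets, with tim and cwo on 2 each. The output gene takeout (to) was not analysed here, so it is represented below only by its gene family and by its neighbours along the chromosome. The 6 Affymetrix arrays fell into 3 groups of 2 biological replicates. Rescue flies were homozygous for a mutation of the microRNA dme-miR-14 and had that microRNA supplied in the insulin-producing cells (IPCs) of the brain. Mutant flies were homozygous for the same mutation without that supply, and control flies are labelled wild-type. All flies were males aged 5 days, reared alike in growth and food. The driver of the rescue, the number of flies per RNA sample, the hour of collection and the light schedule are not given in the sources used here, and no measure of mature miR-14 was used here.

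The fly clock is a feedback loop of transcription. The proteins Clock (CLK) and Cycle (CYC) bind DNA together and switch on per, tim, vri, Pdp1 and cwo. Period (PER) and Timeless (TIM) build up, enter the nucleus and block CLK and CYC, while VRI represses Clk, PDP1 activates it, and CWO restrains the targets of CLK. Cryptochrome (CRY) is a blue light receptor that brings about the loss of TIM, and the peptide PDF carries the signal between clock neurons. Transcripts of per, tim, vri and Pdp1 are known to peak at night, and that of Clk in the opposite phase, so a level in a head depends on the hour at which it was taken. In whole heads much of the RNA of these genes comes from photoreceptors, which carry clocks of their own.

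The values are intensities per probe set, on a linear scale after the authors' normalization, and each comparison is given as a difference of log2 intensity, with its standard error (SE) from a limma fit over all 6 arrays. A probe set is said to have risen or fallen where its p-value, adjusted by the Benjamini-Hochberg method over 18769 probe sets, was under 0.05. Replicates correlated across probe sets at 0.998 in rescue, 0.997 in mutant and 0.994 in control. The median SD between replicates, on the log2 scale, was 0.082 in rescue, 0.083 in mutant and 0.119 in control over the 11 clock probe sets, against 0.055, 0.064 and 0.091 over all probe sets in the same order of groups. RNA quality was gauged from actin control probe sets placed near each end of the transcript. Their 5′ over 3′ ratio was 0.370 and 0.450 for rescue RNA, 0.205 and 0.335 for mutant RNA, and 0.306 and 0.138 for control RNA, with control replicate 2 the lowest. Photoreceptor markers were bright on every array: 7 of the 14 listed were measured, and their summed intensity was 46504 and 47085 in rescue, 54492 and 54107 in mutant, and 57990 and 59804 in control heads. In RNA from whole heads, fewer cells of a type and less RNA per cell cannot be told apart.

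The comparison of mutant and control heads asks how clock transcripts differ in flies that lack miR-14. Expression of per was higher in the mutant, and no other clock gene passed the test. The deubiquitinase gene Usp8, whose product acts on CLK, rose by 1.05, and the phosphatase subunit gene wdb was lower. The activators of the loop, Clk and cyc, did not pass the test.

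The gene per (probe set 1638452_at), an inhibitor of the loop, read 171.2 and 166.5 in mutant heads and 113.2 and 118.9 in control heads. Both mutant arrays were above both control arrays, with means of 169 ± 3.32 in mutant and 116 ± 4.03 in control (SD, n = 2 each). The difference was 0.54 ± 0.086 SE on the log2 scale, or 1.46-fold (adjusted p = 0.0102). Of all probe sets, 6.65% had a larger difference in either direction. The call was lost with either mutant array left out, at 0.52 without mutant replicate 1 (adjusted p = 0.0853) and 0.56 without mutant replicate 2 (adjusted p = 0.0709). Such fits assume that the lone array varies like the other groups, and here they called 3.28% and 3.22% of all probe sets, against 10.8% with all arrays.

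Its partner tim had no such rise. The brighter tim probe set (1634188_a_at) read 654.8 and 728.4 in mutant and 776.2 and 903.1 in control heads, a difference of -0.28 ± 0.10 (adjusted p = 0.144). The dimmer one (1631468_a_at) read 104.7 and 105.3 in mutant and 106.2 and 90.2 in control heads, a difference of 0.10 ± 0.10 (adjusted p = 0.557). The signs of both tim probe sets thus differed, and neither passed in this comparison. With control replicate 1 left out the brighter one differed by -0.39 (adjusted p = 0.0409), in a fit that takes the spread from the other groups and called 21.5% of all probe sets.

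The activators were nearly level. The transcript of Clk (1631948_s_at) read 386.6 and 313.3 in mutant and 354.5 and 408.6 in control heads, with overlapping groups and a difference of -0.13 ± 0.13 (adjusted p = 0.567, 95% interval -0.44 to 0.18). That of cyc (1640765_at) read 381.6 and 351.7 in mutant and 402.3 and 388.5 in control heads (-0.11 ± 0.080, adjusted p = 0.415). The interval for cyc ran from -0.30 to 0.08, so a fall as large as its lower bound was not excluded.

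The regulators of Clk, both of which CLK itself switches on, overlapped between mutant and control. The repressor gene vri (1639273_s_at) read 211.4 and 269.1 in mutant and 182.3 and 222.8 in control heads (0.24 ± 0.14, adjusted p = 0.312). The activator gene Pdp1 (1627436_s_at) read 1573.3 and 1369.4 in mutant and 1340.7 and 1401.6 in control heads (0.10 ± 0.098, adjusted p = 0.556). The probe sets of Clk, vri and Pdp1 bear the suffix that Affymetrix gives where probes can match more than 1 transcript, although the annotation names 1 gene for each.

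For cwo, the brighter probe set (1623277_at) read 567.1 and 543.1 in mutant and 557.5 and 584.5 in control heads (-0.04 ± 0.082, adjusted p = 0.789), and the dimmer one (1631722_at) differed by 0.01 (adjusted p = 0.972). The light receptor gene cry (1628719_at) read 1177.5 and 1188.8 in mutant and 1056.8 and 837.4 in control heads, a difference of 0.33 ± 0.12 that did not pass (adjusted p = 0.127). Control replicate 2 held the lowest cry value. In the same fit without control replicate 1, which called 21.5% of all probe sets, cry differed by 0.50 (adjusted p = 0.0112). The peptide gene Pdf (1633908_at), active in a few clock neurons, read 738.5 and 834.5 in mutant and 965.5 and 859 in control heads (-0.21 ± 0.097, adjusted p = 0.211).

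Thus 1 of 11 clock probe sets rose in the mutant, against 6.88% of all probe sets, and 0 fell, against 3.88%. By the limma test at an unadjusted p under 0.05, 2 were higher and 1 lower. The groups did not overlap for 5 of the 11, against 54.7% of all probe sets. The median difference was 0.01 over the clock probe sets and -0.034 over all probe sets.

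**Figure D1:**
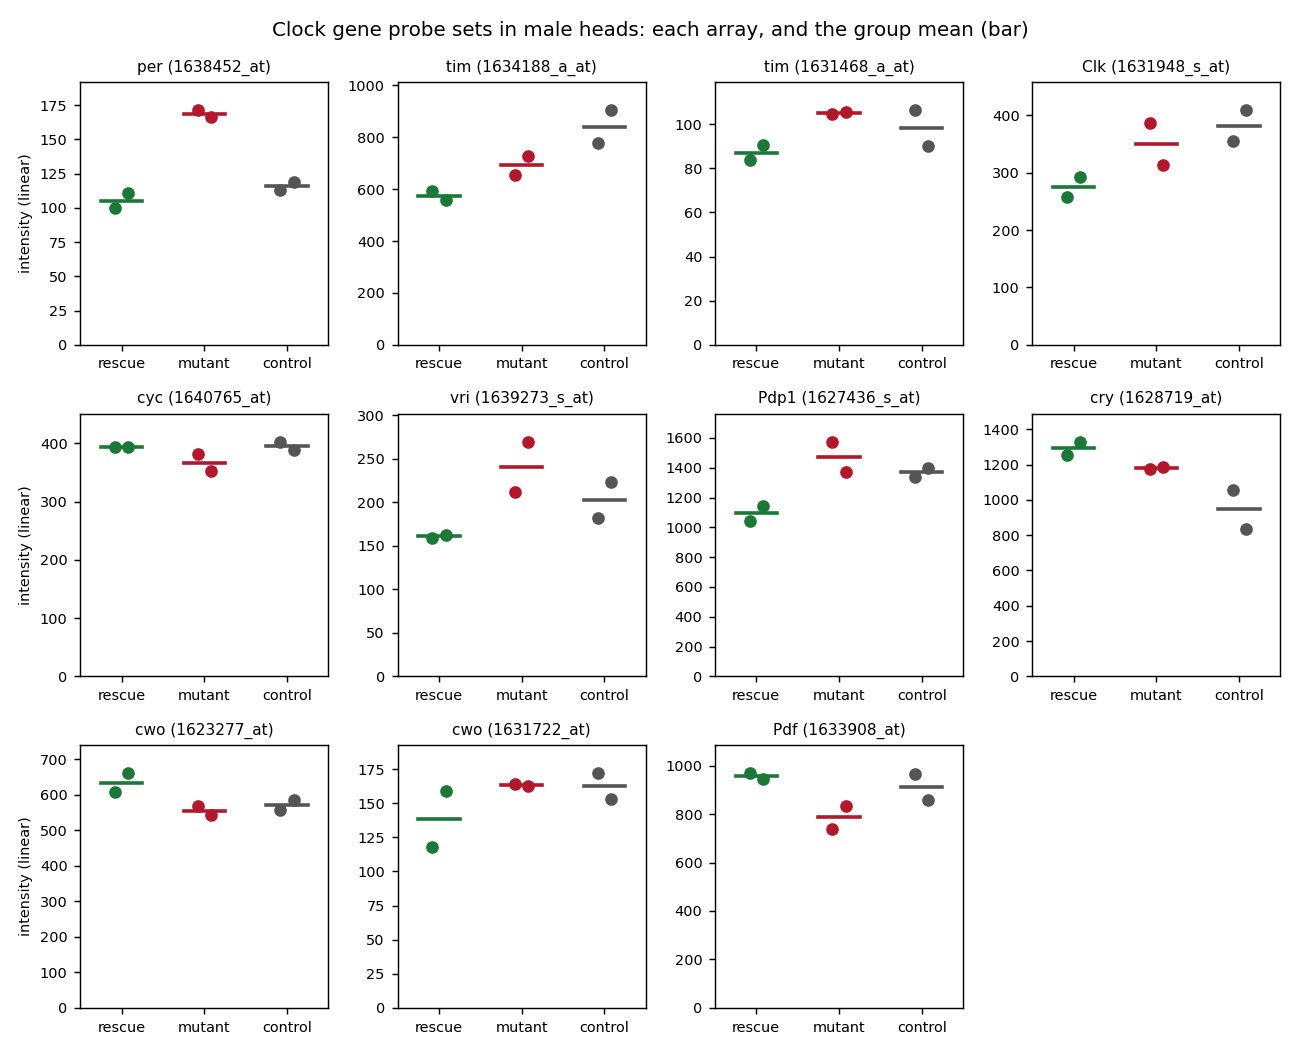
Intensity (linear scale, each panel with its own axis from 0) of the 11 clock probe sets in rescue, mutant and control heads. Points are the 2 arrays of a group and bars their mean. The mutant arrays stand above the others for per at 171.2 and 166.5, and the rescue arrays are below the mutant arrays for both tim probe sets, Clk, vri and Pdp1.

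The comparison of rescue and mutant heads sets flies with the supply of miR-14 to the insulin-producing cells against flies without it. Expression of per fell in the rescue relative to the mutant, and its difference from control did not pass. The CLK targets vri, Pdp1 and tim, and Clk itself, also read below the mutant on both rescue arrays, but none passed the test. For cwo, also a CLK target, the brighter probe set read above the mutant on both rescue arrays and the dimmer one below. Neither cwo probe set passed. Usp8 fell, like per, by -0.98.

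The per transcript read 99.6 and 111 in rescue and 171.2 and 166.5 in mutant heads. The difference was -0.68 ± 0.086, or 0.623-fold (adjusted p = 0.0160), and 1.56% of all probe sets had a larger one in either direction. The call was lost with any 1 rescue or mutant array left out (differences from -0.76 to -0.61, adjusted p from 0.0916 to 0.174). Against control heads, at 113.2 and 118.9, the rescue level differed by -0.14 (adjusted p = 0.309, 95% interval -0.35 to 0.06).

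Next in size was vri, at 159.4 and 162.6 in rescue and 211.4 and 269.1 in mutant heads (-0.57 ± 0.14, adjusted p = 0.133). Pdp1 read 1046.1 and 1145.4 in rescue and 1573.3 and 1369.4 in mutant heads (-0.42 ± 0.098, adjusted p = 0.109). Both had 95% intervals below 0, from -0.90 to -0.23 for vri and from -0.65 to -0.19 for Pdp1, without adjustment for the number of probe sets. With arrays weighted by their estimated quality both passed (adjusted p = 0.0416 for vri and 0.0441 for Pdp1), in a fit that called 4.11% of all probe sets, against 1.4% without weights.

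The Clk probe set read 257.5 and 292.5 in rescue and 386.6 and 313.3 in mutant heads (-0.34 ± 0.13, adjusted p = 0.325). The brighter tim probe set read 593.5 and 556.3 in rescue and 654.8 and 728.4 in mutant heads (-0.27 ± 0.10, adjusted p = 0.336). The dimmer one, at 83.6 and 90.6 in rescue and 104.7 and 105.3 in mutant heads, gave the same difference of -0.27 (adjusted p = 0.309). For tim, then, both probe sets lay lower in the rescue on each array, while in the mutant they had differed in sign.

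The other clock genes lay on the other side or were split. Pdf read 967.6 and 944.4 in rescue and 738.5 and 834.5 in mutant heads (0.28 ± 0.097, adjusted p = 0.266). The difference of cry was 0.13 ± 0.12 (adjusted p = 0.723) and that of cyc 0.10 ± 0.080 (adjusted p = 0.663). The brighter cwo probe set read 608.3 and 660 in rescue and 567.1 and 543.1 in mutant heads (0.19 ± 0.082, adjusted p = 0.376). The dimmer cwo probe set read 118.2 and 159.2 in rescue and 164.3 and 162.3 in mutant heads (-0.25 ± 0.14, adjusted p = 0.522). The 2 cwo probe sets disagreed in sign, and the dimmer one spread widely between the rescue arrays.

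In all, 1 of 11 clock probe sets fell in the rescue relative to the mutant, against 0.709% of all probe sets, and 0 rose, against 0.693%. By limma at an unadjusted p under 0.05, 6 were lower and 1 higher. None of the 11 had overlapping groups, whereas 49.1% of all probe sets did not overlap. The median difference was -0.27 over the clock probe sets and -0.015 over all probe sets, and the median size of the difference was 0.27 against 0.09. Photoreceptor markers moved the same way: 3 of 7 measured fell (inaD, trpl and chp), against 0.91% of all genes. Their median was -0.31, against -0.022 over all genes, and their part in the clock gene values was not tested.

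**Figure D2:**
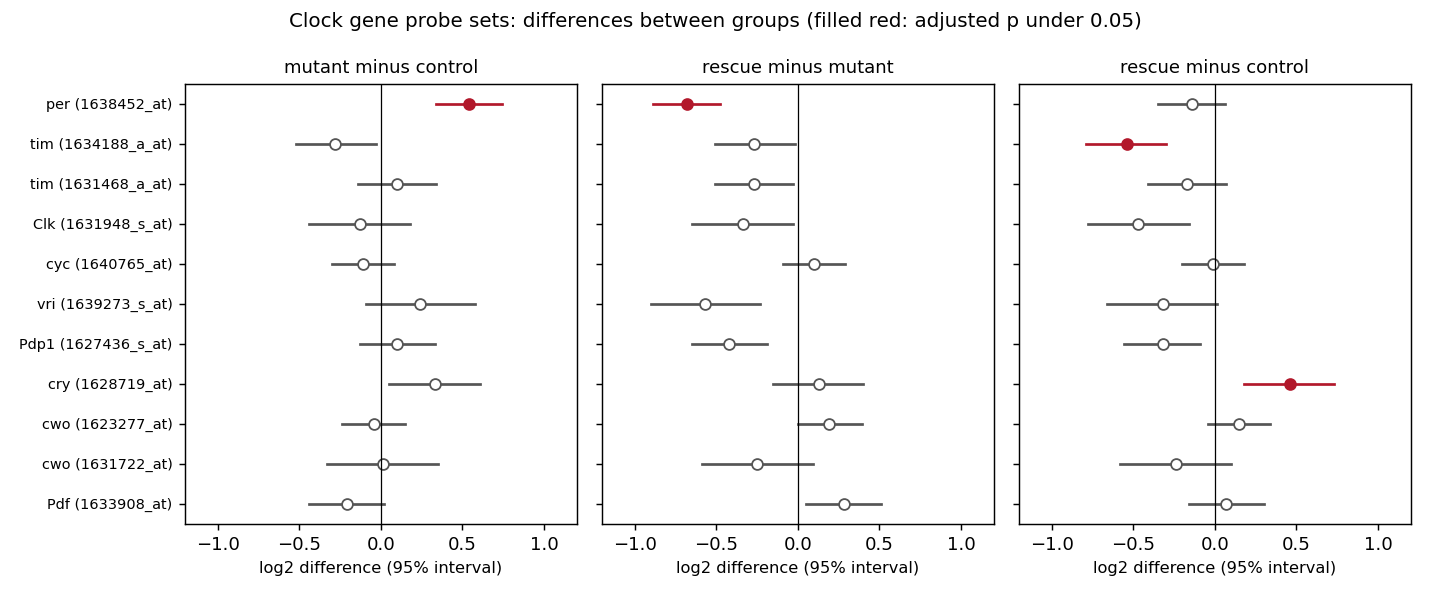
Log2 difference of each clock probe set in 3 comparisons, with the 95% interval of the limma fit as a line. Filled red points passed at an adjusted p under 0.05. They are per in mutant minus control (0.54) and rescue minus mutant (-0.68), and the brighter tim probe set (-0.54) and cry (0.46) in rescue minus control.

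The comparison of rescue and control heads asks how flies that carry both the mutation and the supply of miR-14 differ from wild type. The tim transcript was lower and cry was higher than in control heads. Clk and Pdp1 also read lower on both rescue arrays, without passing. The mutant and rescue comparisons with control use the same control arrays, so their values are given side by side and not as independent measurements.

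For tim, the brighter probe set read 593.5 and 556.3 in rescue and 776.2 and 903.1 in control heads, or 575 ± 26.3 against 840 ± 89.7 (SD, n = 2 each). The difference was -0.54 ± 0.10, or 0.686-fold (adjusted p = 0.0200), beside -0.28 for mutant minus control. The dimmer probe set, at 83.6 and 90.6 in rescue and 106.2 and 90.2 in control heads, overlapped and did not pass (-0.17, adjusted p = 0.299). The call of the brighter one was lost with either rescue array left out, at -0.59 without replicate 1 (adjusted p = 0.106) and -0.50 without replicate 2 (adjusted p = 0.153). Leaving out control replicate 2 lost it as well (-0.43, adjusted p = 0.0542). Adding the mean log2 5′ over 3′ ratio of actin and GAPDH to the fit also lost it (-0.44, adjusted p = 0.132). That fit called 5.02% of all probe sets, against 12.1% without the ratio.

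Of the 7 photoreceptor markers measured, 4 fell in this comparison (trpl, trp, chp and inaD), against 5.69% of all genes. Their median was -0.47, against -0.025 over all genes, beside this fall of tim. The defining opsin gene of the outer photoreceptors, ninaE, was not analysed here. The part of these markers in the tim value was not tested.

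The cry transcript read 1256.2 and 1328.3 in rescue and 1056.8 and 837.4 in control heads (0.46 ± 0.12, adjusted p = 0.0489). This call was close to the threshold and passed in 4 of 14 other settings, with adjusted p from 0.00426 to 0.324. Without control replicate 2, the lowest cry array, the difference was 0.29 (adjusted p = 0.104). In the fit that included the 5′ over 3′ ratio, which called 5.02% of all probe sets, cry differed by 0.23 (adjusted p = 0.324). Among the 14 settings, leaving out either array of the group not compared repeats the fit on only the 2 groups compared. That fit is thus counted more than once wherever the 14 settings are cited.

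Clk read 257.5 and 292.5 in rescue and 354.5 and 408.6 in control heads (-0.47 ± 0.13, adjusted p = 0.0617). It passed with quantile normalization applied again (-0.53, adjusted p = 0.0437) and without control replicate 1 (-0.57, adjusted p = 0.0303), where a lone control array is assumed to vary like the other groups and 26% of all probe sets passed. Pdp1 read 1046.1 and 1145.4 in rescue and 1340.7 and 1401.6 in control heads (-0.32 ± 0.098, adjusted p = 0.0765), and passed with quantile normalization applied again (-0.40, adjusted p = 0.0354). The difference of vri was -0.32 ± 0.14 (adjusted p = 0.174). Pdf differed by 0.07 and cyc by -0.01 (adjusted p = 0.663 and 0.958). The cwo probe sets disagreed in sign, at 0.15 for the brighter (adjusted p = 0.263) and -0.24 for the dimmer (adjusted p = 0.299).

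Here 1 of 11 clock probe sets rose, against 6.83% of all probe sets, and 1 fell, against 5.25%. The groups did not overlap for 7 of the 11, against 59.6% of all. No clock probe set passed (0 of 11) without control replicate 2, rescue replicate 1 or rescue replicate 2, and the share of all probe sets called was then 7.86%, 2.65% and 2.62%, against 12.1% with all arrays. The median was -0.17 over the clock probe sets and -0.049 over all probe sets.

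Around the clock genes, 6 lists of genes known to act on the clock, to carry its output or to cycle in heads held 53 measured genes, each represented by its brightest probe set. In the mutant 5 of the 53 rose and 4 fell relative to control, against 9.21% and 4.11% of all genes. In the rescue 0 rose and 3 fell relative to the mutant, against 0.818% and 0.910% of all genes. Relative to control, 5 rose and 9 fell in the rescue, against 8.91% and 5.69%. Of the 36 calls over these genes and the takeout family described further on, 4 were kept with each of the 6 arrays left out in turn: Usp8 and Jhbp12 in mutant minus control, and Sh and trpl in rescue minus control. The other 32 were lost with at least 1 array left out. Each group holds 2 arrays, and the cause of these losses was not tested.

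Among genes of protein turnover, Usp8 stood out by its size. It read 163.5 and 158.4 in rescue heads, 302.9 and 330.4 in mutant heads, and 147.8 and 156.9 in control heads. Both mutant arrays were far above every other array. The rise over control was 1.05 ± 0.083 (adjusted p = 6.4e-04) and passed in each of the 14 other settings run. The fall in rescue relative to mutant was -0.98 ± 0.083 (adjusted p = 0.00385). That fall did not pass with either rescue array left out, at an adjusted p of 0.0621 without replicate 1 and 0.0684 without replicate 2, nor without mutant replicate 2, at 0.0612.

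The other genes of this list varied less. CSN4, a subunit of the COP9 signalosome, which regulates ubiquitin ligases, rose in the mutant by 0.32 ± 0.078 (adjusted p = 0.0473), and passed in 5 of 14 other settings, being lost without any array but control replicate 2. Cul3, a scaffold of ubiquitin ligases, rose in rescue over control by 0.66 ± 0.15 (adjusted p = 0.0336, and from 0.0574 to 0.189 with any array but control replicate 1 left out), while its dim second probe set differed by -0.27 (adjusted p = 0.0604).

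Of 5 measured genes for kinases and phosphatases of the clock, 1 fell and 0 rose in the mutant, against 4.11% and 9.21% of all genes. The gene that fell was wdb, a regulatory subunit of protein phosphatase 2A, at 121.9 and 112.4 in mutant and 266.6 and 190.6 in control heads (-0.95 ± 0.17, adjusted p = 0.0148). Its rescue arrays, at 155.8 and 185, lay between the other groups, and their difference from the mutant did not pass (0.54, adjusted p = 0.214). A second wdb probe set differed by -0.60 between mutant and control (adjusted p = 0.361). The wdb call did not hold with either mutant array left out, with adjusted p = 0.0855 without replicate 1 and 0.117 without replicate 2.

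Of 10 RNA and transcription cofactors, 1 rose in the mutant and 1 in the rescue relative to control, against 9.21% and 8.91% of all genes. In each case it was me31B, an RNA helicase gene, which rose by 0.45 ± 0.091 in the mutant (adjusted p = 0.0240) and by 0.44 ± 0.091 in the rescue (adjusted p = 0.0259). Both calls were lost with any array but control replicate 1 left out (adjusted p from 0.0537 to 0.168). Genes of light input, with 2 of 5 measured, had no member past the threshold.

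Of 16 genes that act in clock neurons or carry their output, 2 fell and 0 rose in the mutant relative to control, against 4.11% and 9.21% of all genes. They were the potassium channel gene Sh (-0.68 ± 0.099, adjusted p = 0.00739; 4 of its 7 probe sets fell and 3 did not pass) and the sodium leak channel gene na (-0.45 ± 0.11, adjusted p = 0.0462). In rescue relative to control 6 fell and 1 rose, against 5.69% and 8.91% of all genes. The largest were Sh (-0.84), the GABA receptor gene Rdl (-0.76), the potassium channel gene slo (-0.64), na (-0.58) and Mid1 (-0.58), which helps to place the na channel. A second, dimmer Mid1 probe set had the opposite sign and did not pass (0.29, adjusted p = 0.494). The call of Sh in the mutant was lost without either mutant array (adjusted p = 0.0574 and 0.0699), and that of na without any array but control replicate 1 (adjusted p from 0.0907 to 0.212). In rescue minus control, Rdl (adjusted p = 0.0606) and slo (adjusted p = 0.0849) were lost without rescue replicate 1, na without any rescue or mutant array, and Mid1 without any array but control replicate 2. The gene slo was also the 1 member that fell in rescue relative to mutant, at 566.3 and 633.5 in rescue against 991.2 and 887.1 in mutant heads (-0.65 ± 0.095, adjusted p = 0.0294), and lost that call without any 1 rescue or mutant array (adjusted p from 0.110 to 0.258). The PDF receptor gene Pdfr, chosen after its values were seen, rose in rescue over control by 0.42 ± 0.088 (adjusted p = 0.0266, lost without either rescue array or control replicate 2), whereas Pdf differed by 0.07. General neuron markers, with 5 of 6 measured, summed to 4948 and 5270 in rescue, 5323 and 5342 in mutant, and 6443 and 5887 in control heads. In rescue minus control their median was -0.42, with Appl lower (-0.62, adjusted p = 0.00402) and the other 4, brp (-0.43), elav (-0.42), futsch (-0.26) and nSyb (0.48), not past the threshold. In mutant minus control their median was -0.02, and Appl fell (-0.51, adjusted p = 0.00827). The part of these markers in the values of the clock neuron list was not tested.

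Of 12 head transcripts reported to cycle over the day, 3 rose and 1 fell in the mutant, against 9.21% and 4.11% of all genes. Besides Usp8, the risers were Slob, which encodes a protein that binds the slo channel (0.62 ± 0.11, adjusted p = 0.0159, with a second probe set at 0.12), and Cyp18a1, an ecdysteroid hydroxylase gene (0.45 ± 0.089, adjusted p = 0.0234). The faller was the photoreceptor channel gene trpl (-0.58 ± 0.086, adjusted p = 0.00796). In rescue relative to mutant, Usp8 and trpl (-0.53 ± 0.086, adjusted p = 0.0397) fell and 0 rose, against 0.910% and 0.818% of all genes. In rescue relative to control, CG10513 (1.24) and the glycosyltransferase gene Ugt35B1 (0.85) rose, while trpl (-1.11), Crg-1 (-0.47), a gene of a winged helix transcription factor, and Pdh, a dehydrogenase gene of retinal pigment cells, (-0.33) fell. Slob and trpl lost their calls in the mutant without either mutant array (adjusted p from 0.0513 to 0.114), Cyp18a1 without any array but control replicate 1, and trpl its call in rescue minus mutant without any rescue or mutant array (adjusted p from 0.186 to 0.309). In rescue minus control, CG10513 and Crg-1 were lost without either rescue array, and Ugt35B1 and Pdh without any array but control replicate 1. The gene trpl is counted among the photoreceptor markers above.

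**Figure D3:**
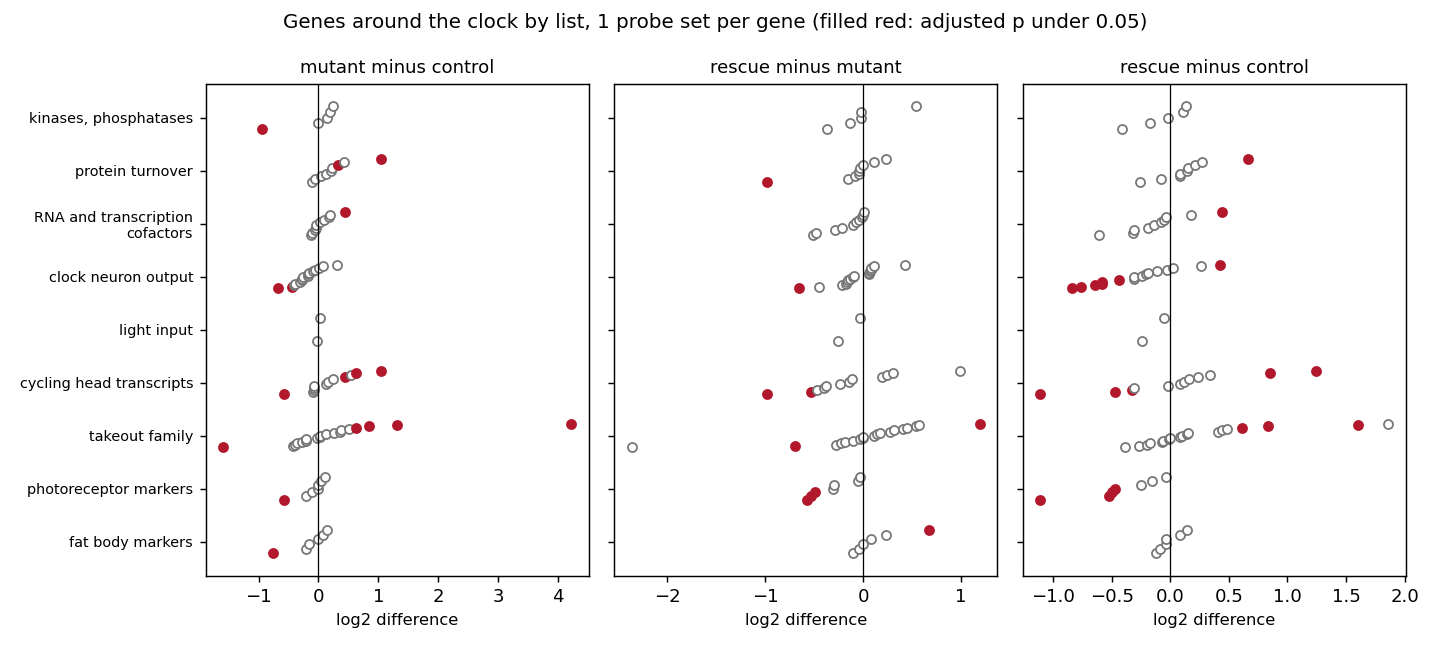
Log2 difference of each measured gene in 7 lists around the clock and 2 lists of cell type markers, 1 probe set per gene, in 3 comparisons, each with its own axis. Filled red points passed at an adjusted p under 0.05. In the protein turnover row Usp8 stands at 1.05 in mutant minus control and -0.98 in rescue minus mutant.

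The gene takeout is an output of the clock, expressed in head fat body among other places, and belongs to a family of secreted proteins related to carriers of juvenile hormone. The members of this family were taken from a fixed list of names, not from a protein search. Of 19 measured members of this family, 4 rose and 1 fell in the mutant relative to control, against 9.21% and 4.11% of all genes. In rescue relative to mutant 1 rose and 1 fell, against 0.818% and 0.910%, and in rescue relative to control 3 rose and 0 fell, against 8.91% and 5.69%. The medians were 0.03, 0.11 and 0.10, against -0.003, -0.022 and -0.025 over all genes.

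The gene on each side of takeout in gene order belongs to the family, and both of these rose in the mutant. Jhbp7 read 169.8 and 204.4 in rescue, 300.3 and 299.6 in mutant, and 193.4 and 194.2 in control heads. Its mutant level was above every other array, by 0.63 ± 0.10 over control (adjusted p = 0.0108), and the rescue lay lower than the mutant by -0.69 ± 0.10 (adjusted p = 0.0294). The first call was lost without either mutant array (adjusted p = 0.0842 and 0.0821) and the second without any 1 rescue or mutant array (adjusted p from 0.0694 to 0.219).

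On the other side, CG11854 read 63.1 and 211.1 in rescue, 930.5 and 377.6 in mutant, and 43 and 23.4 in control heads. The groups did not overlap, but the replicates of each group differed widely. The mutant was higher than control by 4.22 ± 0.63 (adjusted p = 0.00823), a call lost without mutant replicate 1 (3.57, adjusted p = 0.0703), and the difference of rescue and mutant did not pass (-2.36, adjusted p = 0.159). Of the further measured genes within 3 places, Sil1, Cad96Cb and bam had mutant minus control differences of 0.25, -0.37 and 0.36, and none passed in any comparison.

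Elsewhere in the family, Jhbp12 was the member that fell, at 40.6 and 44 in mutant and 155.1 and 103.7 in control heads (-1.59 ± 0.19, adjusted p = 0.00314). It was higher again in the rescue, at 88.2 and 105.6 (1.19 ± 0.19 over mutant, adjusted p = 0.0350). The fall of Jhbp12 passed in each of the 14 other settings, and its rise in the rescue in 8 of them, the losses including any 1 rescue or mutant array left out (adjusted p from 0.179 to 0.273). CG7079 rose by 1.32 ± 0.28 in the mutant (adjusted p = 0.0295) and 1.60 ± 0.28 in the rescue (adjusted p = 0.0152) relative to control, and CG31189 by 0.84 and 0.61. The mutant calls of CG7079 and CG31189 were lost without either mutant array, that of CG7079 also without either rescue array, and the rescue calls without either rescue array, that of CG31189 also without either mutant array or control replicate 2. Jhbp5 rose in the rescue relative to control, by 0.83 ± 0.14 (adjusted p = 0.0126), and lost that call without either rescue array (adjusted p = 0.109 and 0.0715). The family member dyw, next to per in gene order and chosen after its values were seen, was dim, at 23.3 to 31.1 on all arrays, and did not pass (-0.27 for mutant minus control, adjusted p = 0.183). Fat body markers summed to 37987 and 38124 in rescue, 32946 and 32147 in mutant, and 38857 and 36425 in control heads, over 6 genes. The lower mutant sums lay mostly in Lsp2, a storage protein gene, at 11784.4 and 12081.5 in rescue, 7835.2 and 7134.1 in mutant, and 12693.3 and 12677.6 in control heads. Lsp2 fell in mutant relative to control (-0.76) and rose in rescue relative to mutant (0.67). The other 5 markers did not pass in any comparison, with mutant minus control differences from -0.20 (Fbp2) to 0.14 (apolpp). Their part in the family's values was not tested.

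**Figure D4:**
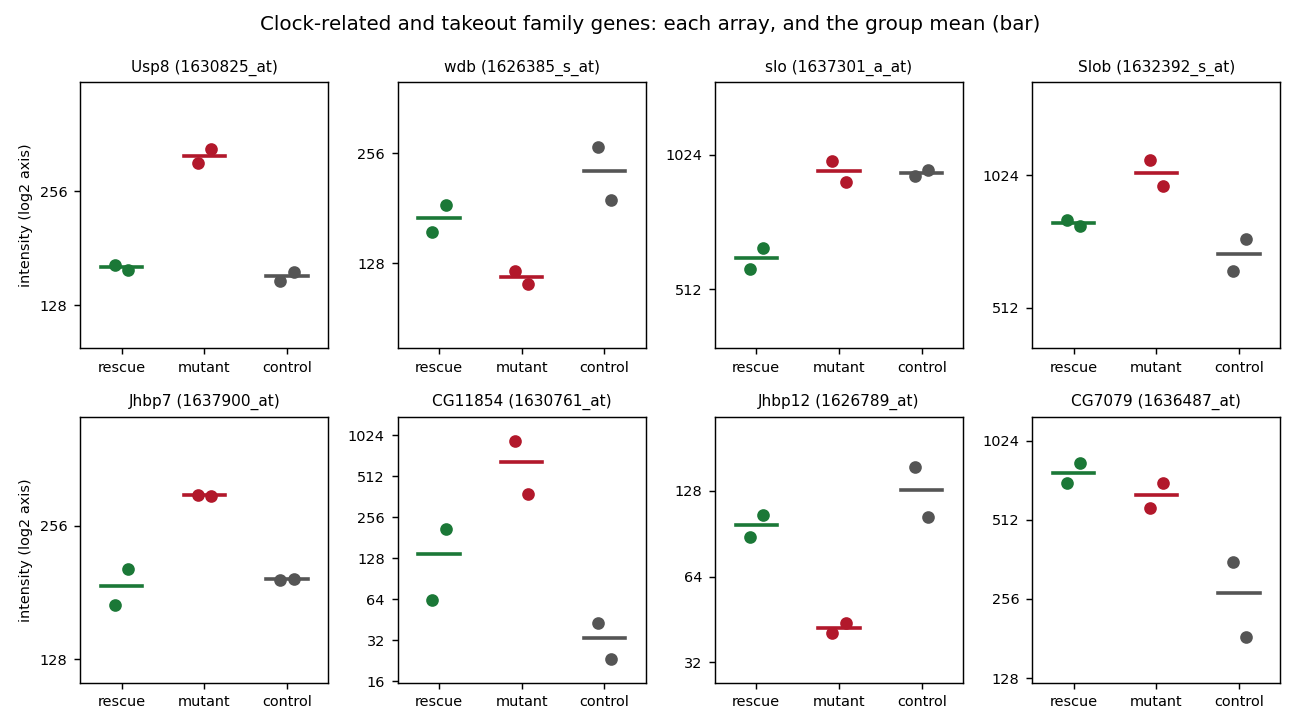
Intensity (log2 axis, each panel with its own range) of 4 clock-related genes (top) and 4 takeout family genes (bottom) in rescue, mutant and control heads. Points are the 2 arrays of a group and bars their mean. Usp8 and Jhbp7 are higher on both mutant arrays than on every other array, and Jhbp12 is lower.

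The 3 group means of no clock probe set spanned 1 unit on the log2 scale, and per, with 0.68, had the widest span, so the fixed rule named no gene as most like a clock gene. Chosen after the values were seen, the genes whose 6 arrays ran closest to per were CG10062, dgt3, CG13917 and Cbl, with root mean square differences of 0.043, 0.063, 0.069 and 0.075 on the log2 scale, each gene centred on its control mean.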

How the data were processed

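RNA of male heads was hybridised to 6 Affymetrix arrays. The deposited table gives 1 intensity per probe set and array on a linear scale, made by the authors with RMA, per the submitters' processing notes. It carries no detection call. RMA sets arrays to a common distribution, so a shift shared by all transcripts is removed, and it compresses differences of dim probe sets. The 183 control probe sets were left out, which left 18769. Log2 intensities in 3 groups were fitted by lmFit and eBayes of the limma package (version 3.58.1, under R 4.3.3), with two-sided p-values adjusted by Benjamini-Hochberg. The arrays' number limits precision: with 2 against 2, an exact permutation test cannot go below 0.333. Replicates are biological per the titles, with pooling unstated. The fit was run on simulated data with known changes and independent noise, without the differences of RNA quality or group spread of these arrays.

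Gene names came from the platform annotation, older symbols being updated through a RefSeq gene table of assembly Release 6 plus ISO1 MT, which also gave gene order. Every clock probe set is described. For other lists, at most the 5 genes past the threshold with the largest differences are named per comparison, with the genes within 3 places of takeout and any others said to be chosen after their values were seen. The members and lists were chosen with earlier results of these data known. Listed genes use their brightest probe set. No sequence was printed. The alternatives were the groups fitted, a replicate block, arrays left out, array weights, the 5′ over 3′ ratio of actin and GAPDH as a covariate, 16 added before log2, a filter at a mean log2 of 5, a variance trend, repeated quantile normalization and all probe sets of listed genes.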

Additional observations from a re-analysis of the deposited data

How the results depend on the processing

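With 1 array left out at a time, the number of clock probe sets past the threshold ran from 0 to 3 for mutant minus control (1 with all arrays), from 0 to 1 for rescue minus mutant (1) and from 0 to 3 for rescue minus control (2). The listed genes past it ran from 2 to 21 (14), from 0 to 8 (5) and from 2 to 24 (17) in the same order. The share of all probe sets called moved with them, from 3.22% to 21.5%, from 0.224% to 3.65% and from 2.62% to 26%. A fit on only the 2 groups compared gave 9, 8 and 10 listed genes, and 1 clock probe set in rescue minus control. It called 5.66%, 3.65% and 6.98% of all probe sets, against 10.8%, 1.4% and 12.1% in the fit of 3 groups. With the replicate block the listed genes were 9, 1 and 10, with 1 clock probe set in rescue minus control. The share of all probe sets called was then 6.8%, 0.693% and 7.35%. The labels do not say that replicate numbers mark shared batches, and deviations of same-numbered arrays correlated at -0.26 (mutant and control), 0.00 (rescue and mutant) and -0.19 (rescue and control). Array weights gave 3 clock probe sets and 9 listed genes in rescue minus mutant, where calls over all probe sets went up to 771 (263 without weights). In the fit that included the 5′ over 3′ ratio, 0 clock probe sets and 8 listed genes passed in rescue minus control. The share of all probe sets called in that fit was 5.02%, against 12.1% without the ratio. With 16 added before log2, 1 clock probe set passed in this comparison, and 13.1% of all probe sets did. The causes were not tested. Over single probe sets, 781 results stayed on their side of the threshold, 178 lost a call and 7 gained one, and no called difference changed sign. Probe sets as dim as the control probe set AFFX-r2-TagB_at (13 to 15.7) may lie at the floor; the dimmest clock probe set, of tim, read 83.6 or more.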

Other observations

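Measured genes within 3 places of a clock gene or takeout numbered 54, and 11 passed in at least 1 of 3 comparisons, in either direction. The share of all genes that did so was not computed, so nothing is read from this count. The genes below were chosen after their values were seen. In single comparisons, 9.21% of all genes rose and 4.11% fell in mutant minus control, and 8.91% and 5.69% in rescue minus control. CG5447, within 3 places of Pdf, was higher in mutant than in control heads (0.44, adjusted p = 0.0188). The immediate neighbours of Pdf in gene order, CG43117 and CG14237, were lower than control in both other groups, while Pdf did not pass. CG43117 read 48.7 and 41.4 in rescue, 37.9 and 38 in mutant, and 73.7 and 90.2 in control heads (-1.10 for mutant minus control, adjusted p = 0.00255, and -0.86 for rescue minus control, adjusted p = 0.00733). CG14237 read 25.1 and 26.4 in rescue, 25.3 and 27.7 in mutant, and 46.4 and 51.9 in control heads (-0.89, adjusted p = 0.00201, and -0.93, adjusted p = 0.0018). Near tim, the leucyl-tRNA synthetase gene LeuRS read 171 and 165.8 in rescue, 135.1 and 147.4 in mutant, and 114.2 and 107.2 in control heads (0.35, adjusted p = 0.0422, and 0.61, adjusted p = 0.00653), in the direction opposite to the brighter tim probe set.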
